A study of Homo sapiens with 60 samples.

Results

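The 8 genes described here are the glucocorticoid receptor gene NR3C1 and 7 genes known as targets of that receptor, TSC22D3, FKBP5, PER1, KLF9, SGK1, ERRFI1 and CRISPLD2. They were chosen by name from the 60675 gene IDs of the count table, with the rise of TSC22D3 under Scutellaria already known, in order to see whether other receptor targets moved with it. Values under Scutellaria are therefore given as a description, with no test. All 8 were found, and all 8 passed the filter on low counts in every fit.

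Cells of A549, an established human lung carcinoma line cultured in medium with fetal bovine serum, were treated for 24 h and profiled by strand-specific RNA sequencing in 60 libraries. The extracts were Sayeok-tang and Bojungikgi-tang, 2 multi-herb formulas extracted with water, and 70% ethanol extracts of Dried ginger (Zingiberis Rhizoma), Fresh ginger (Zingiberis Rhizoma Recens), Pinellia (Pinelliae Tuber), Scutellaria (Scutellariae Radix), Coptis (Coptidis Rhizoma) and Zizyphus (Zizyphi Fructus). Low, medium and high doses were 20, 100 and 500 ug/mL, except for Scutellaria (7.6, 38 and 190 ug/mL) and Coptis (4.4, 22 and 110 ug/mL). Each dose had 3 libraries, except Bojungikgi-tang with 2, and Coptis and Zizyphus with 1, and the Vehicle group had 3 libraries of cells given DMSO. The sample labels give 0.1% DMSO for Vehicle, and the series text states another concentration. For the extract libraries the labels give no DMSO concentration. A difference in solvent therefore cannot be told apart from treatment in comparisons with Vehicle. The labels name no glucocorticoid among these treatments.

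The glucocorticoid receptor is a transcription factor that waits in the cytoplasm in a complex with the chaperone HSP90 and moves to the nucleus once it binds a steroid. There it switches on genes such as FKBP5 and PER1 and damps many inflammatory genes. Lung epithelial cells, A549 among them, are a common model of this response, and FKBP5, TSC22D3, PER1, KLF9, SGK1, ERRFI1 and CRISPLD2 are among the genes that glucocorticoids raise in airway cells. Several of these genes also answer to other signals, TSC22D3 to FOXO factors and SGK1 to serum and osmotic stress.

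Library totals ran from 17.51 to 38.54 M expected counts, with a median of 23.53 M. The mitochondrial share of counts was 8.29% to 11.7% in all groups but Coptis, where it was 15%, 15.9% and 9.92% at the low, medium and high doses. Epithelial and A549 markers were present in every library (KRT18 at 1540 to 2800 TPM, where TPM is a scale of transcript abundance that allows for gene length). The leukocyte genes CD3E and PTPRC were at 0 in 60 and 53 libraries, the endothelial genes PECAM1 and VWF reached at most 0.0488 and 0.0389 TPM, and the fibroblast genes DCN and LUM at most 0.0371 and 0.842 TPM. CD14, also on the leukocyte list, stood at 1.15 to 3.99 TPM.

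Promoter stretches of 4 of the genes are shown because TSC22D3 and SGK1 carried the widest changes of the 8 genes and moved in opposite directions, while FKBP5 and PER1 are the usual sentinels of the receptor. Each is the part of the 250 bases before a RefSeq transcription start (build GRCh38.p14) that lies outside annotated exons, read 5′ to 3′ on the gene's strand, which is the minus strand for all 4. Capitals mark 2 of the motifs searched, TGTTTAC, a core bound by FOX factors, and CACGTG, the E-box bound by clock and MYC-family factors. Every motif was searched on both strands.
TSC22D3, chrX:107717136-107717312: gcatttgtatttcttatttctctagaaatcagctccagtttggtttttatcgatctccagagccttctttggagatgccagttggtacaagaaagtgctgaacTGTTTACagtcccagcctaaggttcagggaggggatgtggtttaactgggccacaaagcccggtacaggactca
SGK1, chr6:134174897-134175116: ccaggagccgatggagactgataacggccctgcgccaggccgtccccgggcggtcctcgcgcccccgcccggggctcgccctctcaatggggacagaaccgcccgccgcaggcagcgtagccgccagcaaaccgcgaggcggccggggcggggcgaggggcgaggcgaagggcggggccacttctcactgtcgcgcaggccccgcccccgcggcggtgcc
FKBP5, chr6:35688943-35689165: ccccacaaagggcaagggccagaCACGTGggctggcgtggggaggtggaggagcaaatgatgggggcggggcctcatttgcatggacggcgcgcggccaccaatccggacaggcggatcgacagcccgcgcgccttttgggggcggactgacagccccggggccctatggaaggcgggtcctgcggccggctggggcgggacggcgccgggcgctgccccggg
PER1, chr17:8152436-8152654: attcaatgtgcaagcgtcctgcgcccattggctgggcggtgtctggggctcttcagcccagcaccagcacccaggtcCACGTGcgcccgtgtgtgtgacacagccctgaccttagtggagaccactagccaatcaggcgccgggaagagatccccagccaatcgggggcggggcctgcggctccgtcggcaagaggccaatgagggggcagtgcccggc
TSC22D3 had 4 start windows, and the stretch shown is from the only one with TGTTTAC. It belongs to the start of a short transcript, TSC22D3-211, and ends 73 bases before it, because those bases lie in an annotated exon. FKBP5 had 2 windows, and the stretch shown is from the only one with CACGTG. All 8 genes matched the RefSeq promoter table, with 20 start windows among them. The half-site of the glucocorticoid receptor, AGAACA on either strand, was in 0 of these 20 windows and in 12.4% of all 35116 windows of the same length. Its full palindrome, AGAACA followed after 3 bases by TGTTCT, was in 1 of the 35116 windows. TGTTTAC was in 1 window each of TSC22D3 and NR3C1, against 3.0% of all windows, and CACGTG in 1 window each of FKBP5 and PER1, against 6.3% of all windows. TGACG, a CREB half-site, was in 4 of the 20 windows, against 21.2% of all windows. GCGTG, the core bound by the dioxin receptor, was in 9 of the 20 windows, against 32.2% of all windows. Those 4 windows came from 2 genes and the 9 from 5 genes. NR3C1 alone had 7 of the 20 windows, and some windows of 1 gene overlapped, so the windows are not separate units. These matches describe the letters in the windows and say nothing of binding.

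In vehicle-treated cells the 8 genes covered a wide range of levels per length. The receptor NR3C1 stood at 73.2 ± 3.3 TPM and ERRFI1 at 102 ± 3.2 TPM (SD, n = 3 each). SGK1 followed with 16.1 ± 0.52 TPM, FKBP5 with 8.68 ± 0.21 TPM, TSC22D3 with 6.28 ± 0.46 TPM, PER1 with 6.15 ± 0.27 TPM, KLF9 with 2.93 ± 0.2 TPM and CRISPLD2 with 0.507 ± 0.037 TPM. TSC22D3 and PER1, neighbours in this order, differed by less than the SD of TSC22D3. The mineralocorticoid receptor gene NR3C2, whose protein also binds glucocorticoids, was at 0.033 ± 0.016 TPM, and HSD11B1, the enzyme that regenerates active cortisol, at 0.0228 ± 0.04 TPM. KLF15 and ZBTB16, transcription factor genes that glucocorticoids raise strongly in many cells, were at 0 in the 3 vehicle libraries and reached at most 0.232 and 0.0516 TPM in any of the 60.

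TSC22D3 (ENSG00000157514, chrX:107713221-107777342, minus strand, GRCh38) encodes GILZ, a leucine zipper protein that mediates part of the anti-inflammatory action of glucocorticoids. With Scutellaria its level stayed flat and then stepped up, at 9.12 to 10.1 CPM in Vehicle, 8.24 to 10.4 CPM at the low dose, 9.14 to 10.5 CPM at the medium dose and 36.0, 39.5 and 35.2 CPM at the high dose, where CPM are the usual depth-scaled counts. The 3 high-dose libraries lay above all 9 others. The fitted log2 change was 1.94 ± 0.07 for the high dose against Vehicle and 1.97 ± 0.08 against the low dose (SE). This rise chose the set of genes and is not tested.

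**Figure D1:**
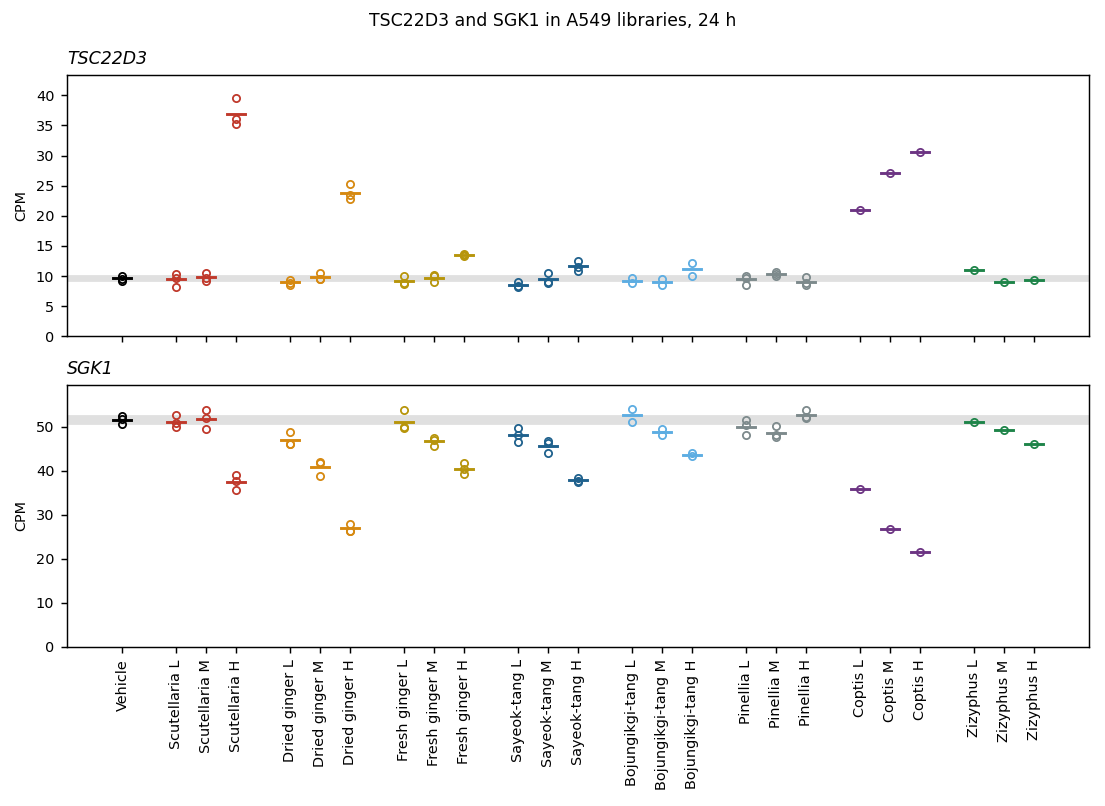
CPM of TSC22D3 (top) and SGK1 (bottom) in each of the 60 libraries, by extract and dose (L low, M medium, H high), with Vehicle at the left. Circles are libraries, bars are group means and the grey band is the range of the 3 Vehicle libraries. TSC22D3 is highest at the Scutellaria high dose (mean 36.9 CPM), and SGK1 is lowest in the Coptis high library (21.5 CPM).

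Dried ginger gave the same kind of step at its high dose. TSC22D3 stood at 25.3, 23.4 and 22.8 CPM in high-dose libraries, against 9.57, 10.1 and 9.12 CPM in Vehicle, and the groups did not overlap. The log2 change was 1.31 ± 0.07 (fold 2.47, edgeR's quasi-likelihood test, adjusted p = 3.4e-15). Against the low dose of dried ginger, at 8.54 to 9.40 CPM, it was 1.41 ± 0.07 (adjusted p = 1.02e-15). At the medium dose the change from Vehicle was 0.04 ± 0.08 (adjusted p = 0.844).

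Fresh ginger and Sayeok-tang raised TSC22D3 less. Fresh ginger high-dose libraries had 13.4, 13.7 and 13.5 CPM, all above Vehicle, with a log2 change of 0.49 ± 0.07 (adjusted p = 2.53e-05). Against the fresh ginger low dose, at 8.74 to 9.95 CPM, it was 0.56 ± 0.07 (adjusted p = 7.57e-06). Sayeok-tang high-dose libraries had 10.9, 11.5 and 12.5 CPM, above the Vehicle range but near it. The change was 0.27 ± 0.09 against Vehicle (adjusted p = 0.0226) and 0.44 ± 0.09 against the low dose, at 8.22 to 9.00 CPM (adjusted p = 8.25e-04). The Sayeok-tang call against Vehicle was lost with DESeq2 (adjusted p = 0.0752), and without Vehicle replicate 3 (0.0827), Sayeok-tang high replicate 2 (0.055) or Sayeok-tang high replicate 3 (0.13). The call against the low dose, which does not use the Vehicle libraries, was kept with DESeq2 and without Sayeok-tang high replicate 2 or 3.

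At the matched dose of 500 ug/mL TSC22D3 was 0.81 ± 0.07 higher on the log2 scale in dried than in fresh ginger (adjusted p = 2.06e-10), with the 3 dried ginger libraries above the 3 fresh ginger libraries. Sayeok-tang and Bojungikgi-tang differed by 0.07 ± 0.09 (95% interval -0.12 to 0.26, adjusted p = 0.845). Bojungikgi-tang high-dose libraries had 10.1 and 12.2 CPM, a change from Vehicle of 0.20 ± 0.10 (adjusted p = 0.273), and Pinellia high-dose libraries had 9.85, 8.85 and 8.45 CPM, a change of -0.09 ± 0.09 (adjusted p = 0.605).

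Coptis had 1 library per dose, and its values have no replicate check. TSC22D3 stood at 9.12 to 10.1 CPM in Vehicle, 21.0 CPM at the low dose, 27.2 CPM at the medium dose and 30.6 CPM at the high dose. The log2 ratios to the Vehicle mean, after adding 0.5 CPM, were 1.09, 1.45 and 1.62, at or past the size of 1 used to single out genes, and outside the Vehicle range. That size and range were passed by 0.255%, 0.620% and 1.56% of the 10973 genes averaging 5 CPM or more at the low, medium and high doses of Coptis. The high-dose count of 691 gives an exact Poisson interval of 28.3 to 32.9 CPM, which covers counting error only. The raised mitochondrial share of the medium and low Coptis libraries is given above, and its part in these values was not tested. In the Zizyphus libraries TSC22D3 was at 11.0, 8.93 and 9.29 CPM at the low, medium and high doses.

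SGK1 (ENSG00000118515, chr6:134169246-134318112, minus strand), a kinase of sodium transport and cell survival that glucocorticoids and serum induce, went the other way from TSC22D3. With dried ginger it fell to 26.3, 26.3 and 28.0 CPM at the high dose, against 50.6, 52.4 and 51.8 CPM in Vehicle, with a log2 change of -0.94 ± 0.05 (adjusted p = 1.16e-15). The groups were far apart, and the medium dose (41.9, 41.7 and 38.7 CPM) lay between them, with a change from Vehicle of -0.34 ± 0.05 (adjusted p = 1.65e-05). High against low dose gave -0.80 ± 0.05 (adjusted p = 5.79e-14), so that SGK1 was already lower at a dose at which TSC22D3 did not pass the test.

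SGK1 also fell with the other 3 extracts whose high dose changed any of the 8 genes in a test. The Sayeok-tang high dose gave 38.4, 37.3 and 37.7 CPM and a log2 change of -0.45 ± 0.04 from Vehicle (adjusted p = 2.23e-10), and its medium dose -0.18 ± 0.04 (adjusted p = 0.0033). The fresh ginger high dose gave 39.3, 40.3 and 41.7 CPM and -0.35 ± 0.05 (adjusted p = 3.33e-06). The Bojungikgi-tang high dose gave 43.4 and 44.0 CPM and -0.24 ± 0.05 (adjusted p = 0.00124). All libraries of these 3 high doses lay below the Vehicle range.

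Against their own low doses, which do not involve the vehicle libraries, the falls were -0.35 ± 0.04 for Sayeok-tang (adjusted p = 2.02e-07), -0.34 ± 0.05 for fresh ginger (1e-05) and -0.27 ± 0.05 for Bojungikgi-tang (0.00214). The Bojungikgi-tang call was lost without its high-dose replicate 2 (adjusted p = 0.0508) or its low-dose replicate 2 (0.163), each of which leaves 1 library in that group, assumed to vary like the others. At 500 ug/mL SGK1 was lower in dried than in fresh ginger (log2 difference -0.59 ± 0.05, adjusted p = 2.22e-10). It was lower in Sayeok-tang than in Bojungikgi-tang (-0.21 ± 0.05, adjusted p = 0.00909), a call lost without either Bojungikgi-tang library (0.0834 and 0.106). Pinellia high-dose libraries held 53.9, 51.9 and 52.2 CPM, with a change of 0.03 ± 0.04 (95% interval -0.05 to 0.11, adjusted p = 0.756).

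Under Scutellaria, described without a test, SGK1 was at 50.6 to 52.4 CPM in Vehicle, 49.9 to 52.6 CPM at the low dose, 49.4 to 53.8 CPM at the medium dose and 35.6, 37.6 and 38.9 CPM at the high dose. The log2 change at the high dose was -0.47 ± 0.04 against Vehicle. The libraries that held the highest TSC22D3 thus held less SGK1 than every Vehicle library. In Coptis SGK1 went down step by step, to 35.9, 26.8 and 21.5 CPM at the low, medium and high doses, with log2 ratios of -0.52, -0.93 and -1.24 to the Vehicle mean, the last of them past the size used. The Zizyphus libraries had 51.1, 49.2 and 46.0 CPM in the same order.

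FKBP5 (ENSG00000096060, chr6:35573585-35728583, minus strand) encodes an HSP90 co-chaperone that lowers the receptor's affinity for steroid, and it is among the most used readouts of receptor activity. It stayed close to its vehicle level almost everywhere. Vehicle libraries had 29.8, 29.4 and 29.6 CPM, and the means of the other 24 groups ran from 26.0 to 32.1 CPM. In the 5 replicated extracts other than Scutellaria it passed the test in 0 of the 15 comparisons with Vehicle. In 1 of them its unadjusted p was under 0.05, and DESeq2 called 0. At the dried ginger high dose, where TSC22D3 had risen, it stood at 26.6 to 29 CPM, with a change of -0.10 ± 0.07 (95% interval -0.23 to 0.03, adjusted p = 0.239). At the Scutellaria high dose it was at 27.0, 26.4 and 25.9 CPM, a log2 change of -0.16 ± 0.05 given as a description, and at the Coptis high dose at 26.0 CPM, a log2 ratio of -0.19. None of these 3 extracts, which had the highest TSC22D3, had FKBP5 above Vehicle at the high dose. In the Coptis low and medium libraries, where TSC22D3 was also raised, FKBP5 was at 30.19 and 30.85 CPM, slightly above the Vehicle libraries. Their intervals for counting error alone, 27.8 to 32.7 and 28.4 to 33.4 CPM, covered the Vehicle values.

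NR3C1 (ENSG00000113580, chr5:143277931-143435512, minus strand), the receptor itself, varied little. In Vehicle it was at 210 to 220 CPM. It passed the test in 0 of the 15 comparisons with Vehicle outside Scutellaria. In 1 of them its unadjusted p was under 0.05, and DESeq2 called 0. The fits gave log2 changes between -0.08 ± 0.04 and 0.09 ± 0.04, both in dried ginger. Dried ginger high-dose libraries (199, 197 and 215 CPM) were lower than low-dose libraries (217, 224 and 235 CPM; log2 change -0.14 ± 0.04, adjusted p = 0.009). That call was lost without dried ginger high replicate 1 (0.0577), high replicate 2 (0.0634) or low replicate 3 (0.0749). In Scutellaria NR3C1 was at 185, 191 and 193 CPM at the high dose, below the Vehicle range, and the log2 change was -0.19 ± 0.03.

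PER1 (ENSG00000179094, chr17:8140472-8156506, minus strand), a circadian repressor with receptor binding sites near its gene, fell with dried ginger. It was at 11.1, 10.4 and 9.21 CPM at the high dose, against 13.1, 14.0 and 14.4 CPM in Vehicle, with a log2 change of -0.44 ± 0.09 (adjusted p = 1.76e-04). Against the low dose, at 12.8 to 14.7 CPM, the change was -0.41 ± 0.09 (adjusted p = 5.28e-04). In the other 4 replicated extracts that were tested no dose passed against Vehicle, and the changes there lay between -0.10 ± 0.09 and 0.15 ± 0.07. Scutellaria high-dose libraries had 11.9, 12.3 and 12.9 CPM, all under the Vehicle range, with a log2 change of -0.16 ± 0.07.

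KLF9 (ENSG00000119138, chr9:70384597-70414624, minus strand), a zinc finger repressor induced by glucocorticoids and thyroid hormone, was low, and its changes followed dose in an unlike way. It fell at the high dose of Sayeok-tang (3.75, 3.25 and 3.40 CPM, against 4.46, 4.88 and 5.28 CPM in Vehicle; log2 change -0.49 ± 0.12, adjusted p = 0.00227). Dried ginger at its high dose held 3.39, 3.63 and 3.94 CPM (-0.40 ± 0.12, adjusted p = 0.00729) and fresh ginger 3.62, 3.12 and 4.32 CPM (-0.41 ± 0.12, adjusted p = 0.0229). The fresh ginger call was lost without Vehicle replicate 2 (0.0616) or 3 (0.111), or without fresh ginger high replicate 1 (0.0699) or 2 (0.175). The drops were wider against the low doses, by 0.79 ± 0.12 for Sayeok-tang (adjusted p = 6.14e-06), 0.73 ± 0.12 for fresh ginger (adjusted p = 1.89e-04) and 0.58 ± 0.12 for dried ginger (adjusted p = 2.71e-04) on the log2 scale. At the low doses KLF9 was above Vehicle by 0.18 to 0.38 in the 5 extracts tested, which passed the test in Bojungikgi-tang (0.38 ± 0.12, adjusted p = 0.0404). That Bojungikgi-tang call was lost with no filter on low counts (0.0542), in a fit of all 60 libraries (0.0609), and without Bojungikgi-tang low replicate 2 (0.141) or 3 (0.301) or Vehicle replicate 1 (0.117) or 2 (0.0806), and DESeq2 gave no adjusted p for it. In Scutellaria KLF9 was at 4.46 to 5.28 CPM in Vehicle, 5.39 to 6.58 CPM at the low dose, 6.07 to 6.61 CPM at the medium dose and 4.36 to 5.78 CPM at the high dose.

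ERRFI1 (ENSG00000116285, chr1:8004404-8026308, minus strand) encodes MIG6, an inhibitor of the EGF receptor kinase. It rose slightly with dried ginger (146, 148 and 156 CPM at the high dose, against 136, 138 and 136 CPM in Vehicle; log2 change 0.13 ± 0.03, adjusted p = 0.0028). It fell slightly with Sayeok-tang (122, 126 and 122 CPM at the high dose; -0.16 ± 0.03 from Vehicle, adjusted p = 1.54e-04, and -0.16 ± 0.03 from the low dose, adjusted p = 2e-04). In Scutellaria it was at 167, 178 and 167 CPM at the high dose, above all Vehicle libraries, with a log2 change of 0.32 ± 0.03. Coptis held 147, 162 and 178 CPM at the low, medium and high doses.

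CRISPLD2 (ENSG00000103196, chr16:84819984-84920768, plus strand), a secreted protein raised by glucocorticoids in airway smooth muscle, was near the lower limit of what was counted, at 1.21 to 1.44 CPM in Vehicle. Its one call, for the dried ginger high dose (1.73, 2.08 and 1.63 CPM; log2 change 0.47 ± 0.19, adjusted p = 0.04998), was lost under 5 alternatives, among them DESeq2 (0.151), and with 5 of the 6 libraries left out in turn. It is counted below but not read as a change.

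**Figure D2:**
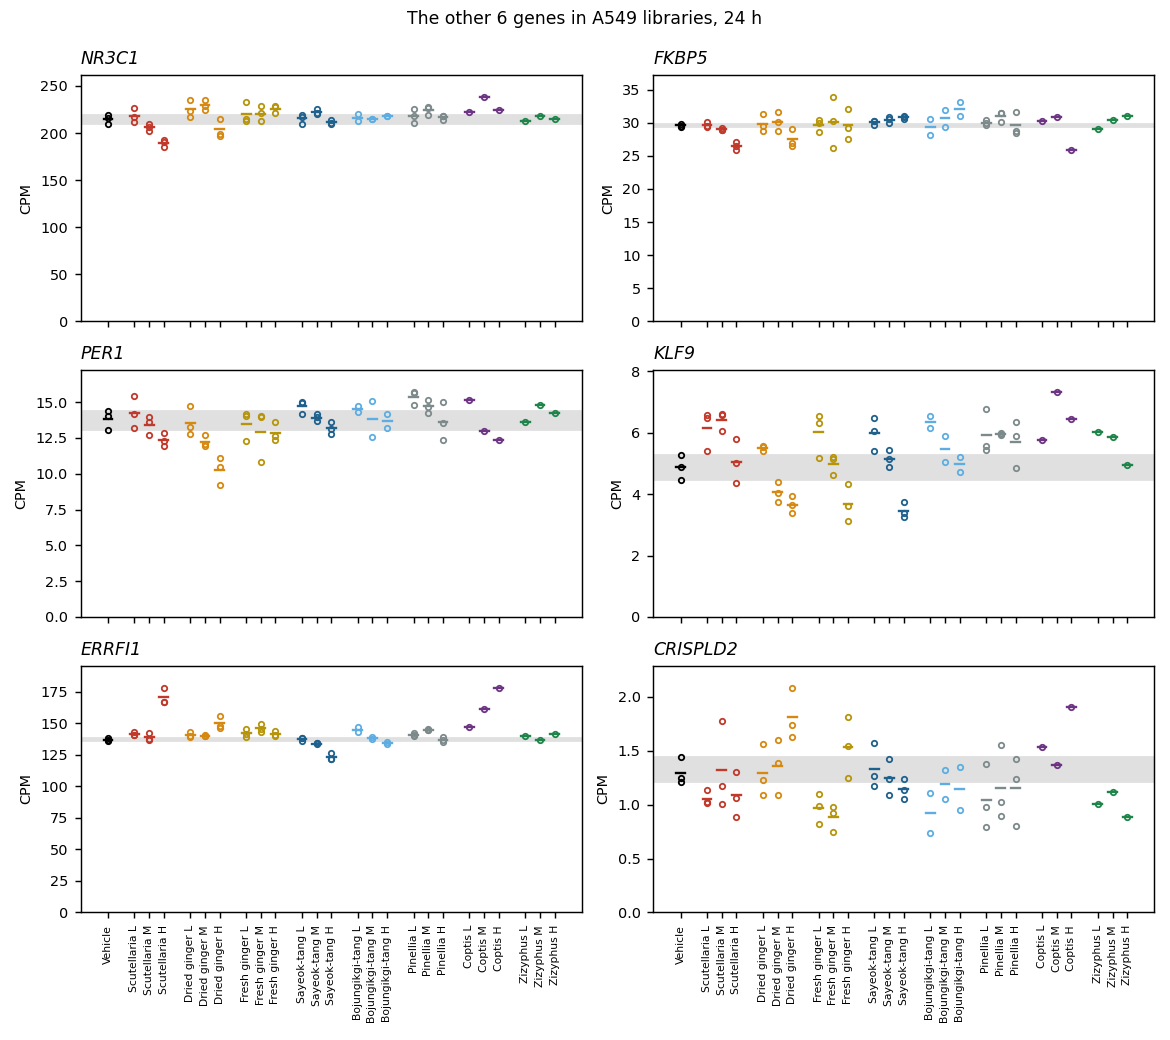
CPM of NR3C1, FKBP5, PER1, KLF9, ERRFI1 and CRISPLD2 in each of the 60 libraries, by extract and dose (L low, M medium, H high), with Vehicle at the left. Circles are libraries, bars group means and grey bands the range of the 3 Vehicle libraries. FKBP5 group means lie between 26.0 and 32.1 CPM, and PER1 is lowest at the dried ginger high dose (mean 10.3 CPM).

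Counted together, the dried ginger high dose changed 6 of the 8 genes against Vehicle, 3 higher and 3 lower, where 39.2% of all genes tested passed. Sayeok-tang changed 4 of 8 (1 higher and 3 lower; 18.9% of all genes), fresh ginger 3 of 8 (1 higher and 2 lower; 13.4%), Bojungikgi-tang 1 of 8 (lower; 3.72%) and Pinellia 0 of 8 (8.93%). For Pinellia 0 of the 8 had an unadjusted p under 0.05 and 0 were called by DESeq2, which gave no adjusted p for 2. For Scutellaria, whose high dose led to the choice of the genes, 5 of 8 lay past the same threshold, 2 higher and 3 lower, beside 40.3% of all genes, which is given as a description and not read further. The median log2 change of the 8 genes was -0.09 for dried ginger and -0.11 for Sayeok-tang, against 0.01 and -0.00 for all genes.

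Against the low dose of the same extract 6 of 8 passed for dried ginger (2 higher and 4 lower, where 32.8% of all genes passed), 4 for Sayeok-tang (7.58%), 3 for fresh ginger (3.67%), 1 for Bojungikgi-tang (0.712%) and 0 for Pinellia (0.0663%). For Pinellia 1 of the 8 had an unadjusted p under 0.05 here, and DESeq2 called 0 and gave no adjusted p for 2. TSC22D3 was the higher gene in each of the first 3 extracts, with ERRFI1 beside it in dried ginger (0.09 ± 0.03, adjusted p = 0.0356), a call lost without dried ginger high replicate 3 (0.164) or low replicate 2 (0.0945) or 3 (0.0802). SGK1 was among the lower genes in all 4 extracts with a call. For Scutellaria 6 lay past the threshold (31.0% of all genes), which is again given only as a count. At 500 ug/mL 4 of the 8 differed between dried and fresh ginger, where 22.5% of all genes did, and 3 between Sayeok-tang and Bojungikgi-tang, where 2.05% did. The calls between the gingers were TSC22D3, SGK1, PER1 (-0.34 ± 0.09, adjusted p = 0.00583; 0.0701 without dried ginger high replicate 3) and NR3C1 (-0.15 ± 0.04, adjusted p = 0.0101; 0.0656 and 0.0715 without dried ginger high replicates 1 and 2). Those between the formulas were SGK1, KLF9 (-0.53 ± 0.13, adjusted p = 0.0178) and ERRFI1 (-0.13 ± 0.03, adjusted p = 0.0312), and all 3 were lost without Bojungikgi-tang high replicate 2 or 3. KLF9 was also lost without Sayeok-tang high replicate 2 (0.0878) or 3 (0.0666), and ERRFI1 without Sayeok-tang high replicate 1 (0.14) or 3 (0.116), or when low counts were left unfiltered (0.105). All comparisons with Vehicle share the same 3 libraries.

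At the lower doses few of the 8 genes passed against Vehicle. At the medium doses 1 of 8 passed for dried ginger and 1 for Sayeok-tang, SGK1 in both, where 6.14% and 10.8% of all genes did. For fresh ginger (0.770%), Bojungikgi-tang (1.92%) and Pinellia (7.19%) the medium dose gave 0 of 8, with 3, 0 and 3 at an unadjusted p under 0.05. At the low doses 1 of 8 passed for Bojungikgi-tang, KLF9, where 6.94% of all genes did. For dried ginger (3.60%), fresh ginger (6.48%), Sayeok-tang (8.32%) and Pinellia (5.51%) the low dose gave 0 of 8. Of the 8, 1, 1, 2 and 2 had an unadjusted p under 0.05. DESeq2 called 0 in each comparison where edgeR called 0, but gave no adjusted p for 2 to 4 of the 8 genes there. For Scutellaria, given as counts only, 1 of 8 lay past the threshold at the medium dose and 0 at the low dose, beside 8.91% of all genes at either. None of the 8 genes passed the size and range used for Coptis in the Zizyphus libraries, which 0.118%, 0.100% and 0.100% of genes passed at the low, medium and high doses.

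**Figure D3:**
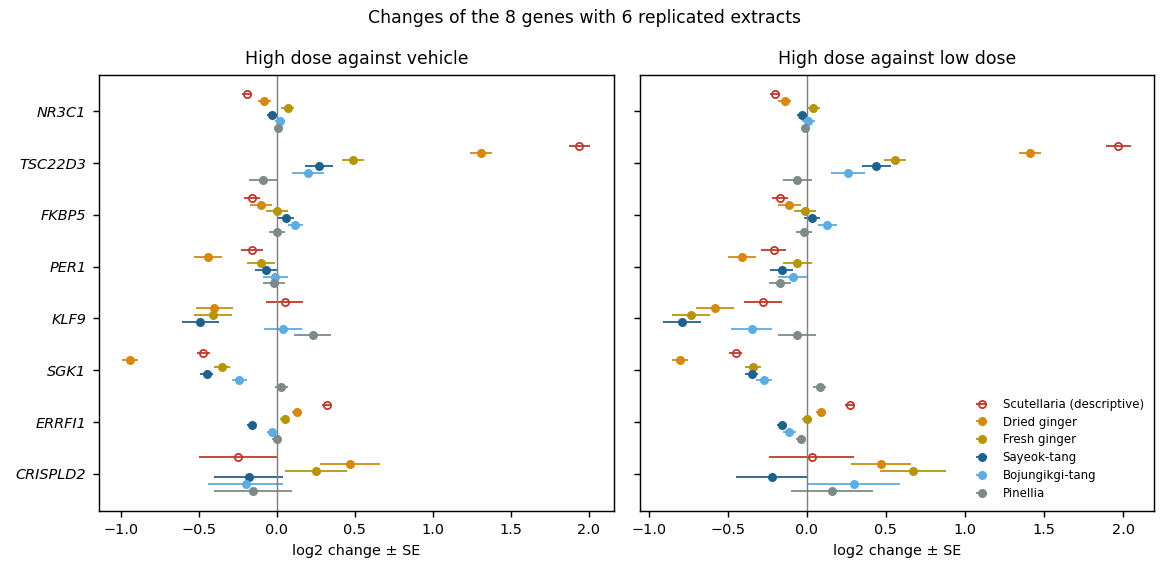
Log2 changes of the 8 genes with 6 replicated extracts, high dose against Vehicle (left) and high against low dose (right), with standard errors. Open symbols are Scutellaria, whose values chose the genes. TSC22D3 lies to the right for Scutellaria (1.94 and 1.97) and dried ginger (1.31 and 1.41), while SGK1 lies to the left (-0.47 and -0.45, and -0.94 and -0.80).

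A wider list of 37 genes raised by glucocorticoids in other systems split both ways. Of 31 that were tested, 10 were higher and 8 lower at the dried ginger high dose against Vehicle, beside 20.2% higher and 19.0% lower among all genes, and the list's median log2 change was 0.13, against 0.01 for all genes. DDIT4, an inhibitor of mTORC1, averaged 360 ± 7.1 CPM in dried ginger and 176 ± 4.5 CPM in Vehicle (log2 change 1.03 ± 0.04, adjusted p = 1.38e-17). BIRC3, an inhibitor of apoptosis that NF-kB also induces, averaged 73.7 ± 3.5 and 39.7 ± 0.77 CPM (0.89 ± 0.04, adjusted p = 1.3e-15). With Sayeok-tang 11 were higher and 6 lower (9.39% and 9.53% of all genes), with BIRC3 (0.45 ± 0.05, adjusted p = 2.26e-08) and TNFAIP3, an NF-kB inhibitor (0.80 ± 0.09, adjusted p = 2.53e-08), among the higher. DUSP1, a MAP kinase phosphatase and a classic receptor target, fell with Sayeok-tang (-0.31 ± 0.03, adjusted p = 2.68e-09) and fresh ginger (-0.32 ± 0.04, adjusted p = 2.32e-07). Fresh ginger had 5 higher and 4 lower of 31 (6.21% and 7.16%), Bojungikgi-tang 4 and 3 (1.39% and 2.33%) and Pinellia 2 and 3 (3.85% and 5.08%), where DESeq2 called 3 and gave no adjusted p for 14. For Scutellaria the counts were 7 and 5 (20.2% and 20.0%), from which nothing is read, with DDIT4 at 379 ± 2.2 CPM and DUSP1 at 192 ± 6.4 CPM, against 176 ± 4.5 and 151 ± 1.7 CPM in Vehicle.

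Inflammatory genes that glucocorticoids are known to repress mostly rose with dried ginger and Sayeok-tang. Of 7 tested from a list of 11, the dried ginger high dose had 5 higher and 1 lower against Vehicle, and Sayeok-tang 5 higher and 2 lower, with median log2 changes of 0.77 and 0.71, against 0.01 and -0.00 for all genes. The neutrophil chemokine CXCL8 averaged 7.76 ± 0.8 CPM with dried ginger and 6.34 ± 0.67 CPM with Sayeok-tang, against 1.08 ± 0.25 CPM in Vehicle (log2 changes 2.85 ± 0.19, adjusted p = 9.32e-13, and 2.56 ± 0.16, adjusted p = 2.11e-14). The chemokine CXCL1 changed by 2.29 ± 0.18 (adjusted p = 4.34e-11) and 2.60 ± 0.17 (adjusted p = 5.56e-14). IL11, a cytokine of the IL-6 family, fell with dried ginger (-0.54 ± 0.07, adjusted p = 1.77e-07). Among all genes 20.2% were higher and 19.0% lower with dried ginger, and 9.39% and 9.53% with Sayeok-tang. Fresh ginger had 1 higher and 1 lower (6.21% and 7.16% of all genes) and Pinellia 1 and 1 (3.85% and 5.08%). Bojungikgi-tang had 3 and 1 (1.39% and 2.33%), while DESeq2 called 1 and gave no adjusted p for 4. For Scutellaria, given as counts only, 5 lay past the threshold as higher and 1 as lower (20.2% and 20.0% of all genes). The median log2 change there was 0.75, close to those of dried ginger and Sayeok-tang, and CXCL8 averaged 3.74 ± 0.21 CPM.

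The receptor's chaperones and coactivators formed another list, of which 17 of 20 were tested. With dried ginger 7 were lower and 3 higher against Vehicle, beside 19.0% lower and 20.2% higher among all genes. The 8 that passed against the low dose were all lower, where 32.8% of all genes passed in either direction. HSP90AA1 and HSP90AB1 are genes of the HSP90 proteins that hold the receptor ready for steroid. They fell by 0.67 ± 0.06 and 0.48 ± 0.04 on the log2 scale against Vehicle (adjusted p = 1.31e-09 and 4.08e-11). The HSP70 to HSP90 adaptor STIP1 fell by 0.43 ± 0.03 (adjusted p = 4.52e-11). Against Vehicle the higher and lower counts were 4 and 5 for Sayeok-tang (9.39% and 9.53% of all genes), 1 and 4 for fresh ginger (6.21% and 7.16%) and 4 and 3 for Pinellia (3.85% and 5.08%). For Bojungikgi-tang 2 were lower (2.33% of all genes), while DESeq2 called 6. For Scutellaria, given as counts only, 6 were higher and 7 lower (20.2% and 20.0% of all genes). HSP90AA1 averaged 1660 ± 44 CPM at the Scutellaria high dose, given without a test, and 2980 ± 77 CPM in Vehicle.

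Genes linked to cAMP and CREB, a pathway that also raises PER1, were among those that fell with 4 extracts. Of 10 tested from 11, 7, 6, 4 and 4 were lower against Vehicle with dried ginger, Sayeok-tang, fresh ginger and Bojungikgi-tang, beside 19.0%, 9.53%, 7.16% and 2.33% lower among all genes. The orphan receptor NR4A1 averaged 10.5 ± 0.38 CPM with dried ginger, 19.2 ± 0.62 CPM with Sayeok-tang and 19.6 ± 0.66 CPM with fresh ginger, against 38.4 ± 1.4 CPM in Vehicle. Its log2 changes with dried and fresh ginger were -1.88 ± 0.06 and -0.97 ± 0.06 (adjusted p = 4.25e-20 and 1.11e-12), and with Sayeok-tang it also passed (adjusted p = 5.53e-17). Pinellia had 1 changed, which was higher (3.85% of all genes). For Bojungikgi-tang DESeq2 called 2 of the 10 and gave no adjusted p for 4. For Scutellaria, given as counts only, 2 were higher and 1 lower (20.2% and 20.0% of all genes). The median log2 change of the list was 0.13 for Scutellaria and -0.19 for dried ginger, and this difference was not tested. FOXO factors and genes that they raise, a list of 14 with 13 tested, had 3 higher and 1 lower with dried ginger, beside 20.2% higher and 19.0% lower among all genes. With Sayeok-tang 3 were lower (9.53% of all genes), while DESeq2 called 1 and gave no adjusted p for 2. Fresh ginger had 2 higher and 1 lower of this list (6.21% and 7.16% of all genes). With Bojungikgi-tang and Pinellia 0 passed in edgeR's and 0 in DESeq2's test, and 1 and 4 had an unadjusted p under 0.05. For both extracts DESeq2 gave no adjusted p for 7 of the 13, so its 0 does not cover the whole list. For Scutellaria, again as counts only, 3 of the FOXO list were higher and 0 lower (20.2% and 20.0% of all genes). IRS2, PDK4, FOXO1, BCL6 and CITED2 are on both the FOXO list and the glucocorticoid-raised list, and DUSP1 on both the glucocorticoid-raised list and the CREB list, so these counts are not separate.

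**Figure D4:**
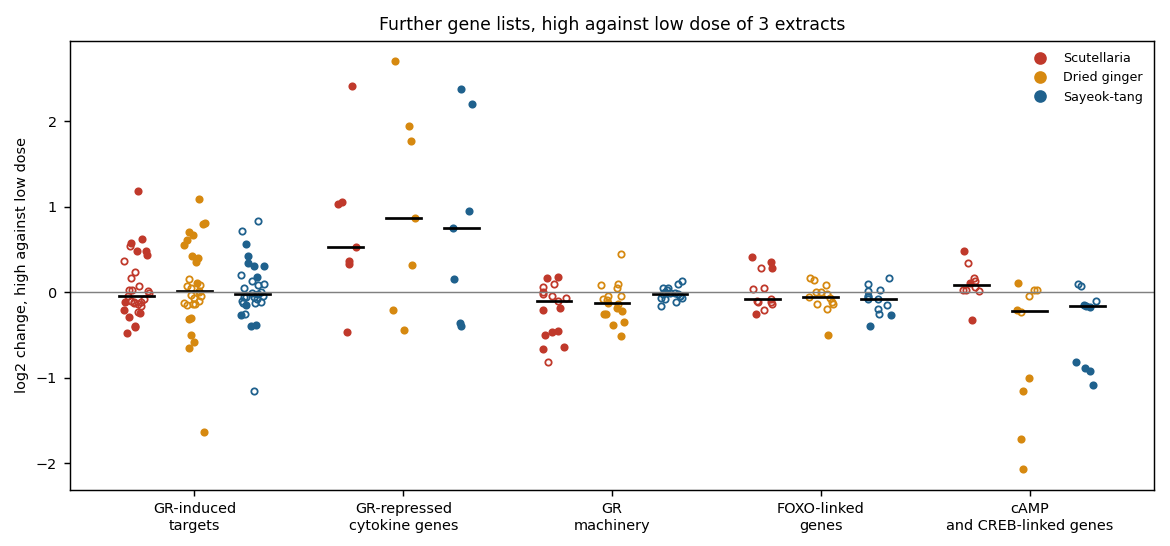
Log2 change of high against low dose for each tested gene of 5 further lists, with Scutellaria, dried ginger and Sayeok-tang from left to right in each list. Filled points had an adjusted p under 0.05, open points did not, and black lines are list medians. Scutellaria points are a description, and nothing is read from their filling. For dried ginger the glucocorticoid-raised list has a median of 0.01 and the repressed cytokine list one of 0.87.

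Across the 25 group means the gene most like TSC22D3 was TRIB3, a pseudokinase, with Pearson's r = 0.99 over 25 groups on log2(CPM + 0.5), among 10973 genes. CLIC4, a chloride intracellular channel protein (r = 0.99), PCK2, the mitochondrial form of phosphoenolpyruvate carboxykinase (0.98), CARS1, the cysteinyl-tRNA synthetase (0.98), and DDIT4 (0.98) came next. TRIB3 averaged 272 ± 5.7 CPM at the Scutellaria high dose, 202 ± 1.9 CPM at the dried ginger high dose, 108 ± 1.8 CPM at the fresh ginger high dose and 301 CPM in the Coptis high library, against 69.4 ± 5.6 CPM in Vehicle. Without the Scutellaria high and Coptis high groups, the 2 farthest from the median of TSC22D3, r was 0.98 for TRIB3. Its rank correlation (Spearman's rho) over all 25 groups was 0.87.

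Among the other 7 genes the correlation with TSC22D3 was -0.86 for SGK1 (Spearman's rho -0.68, and r -0.92 without those 2 groups). For ERRFI1 it was 0.81 (rho 0.49, and r 0.61 without them). It was -0.63 for FKBP5, which became -0.18 without them and so rested on them. NR3C1 had -0.19, which changed sign to 0.19 without them. PER1 had -0.53 (-0.46 without them), CRISPLD2 0.56 (0.64) and KLF9 -0.02 (-0.12). The points of all genes come from the same 60 libraries, the Vehicle group is 1 of the 25, and doses of 1 extract are not independent, so these values are descriptions. FKBP5 and PER1 had r = 0.55 with each other.

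**Figure D5:**
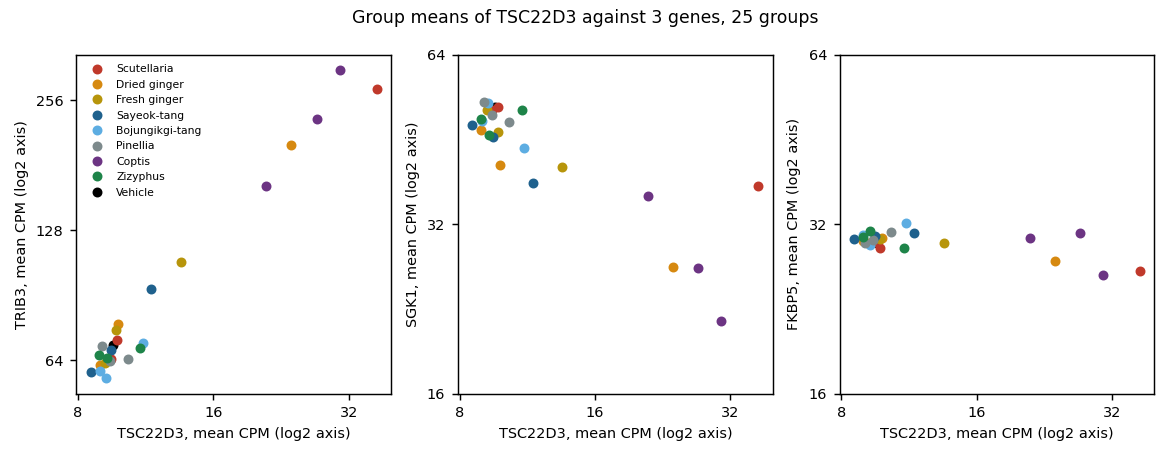
Mean CPM of TSC22D3 (x axis, log2 scale) against TRIB3, SGK1 and FKBP5 (y axes, log2 scale) in 25 groups, coloured by extract. TRIB3 goes up with TSC22D3 (r = 0.99), SGK1 goes down (r = -0.86) and FKBP5 stays between 26.0 and 32.1 CPM.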

How the data were processed

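Per the submitters' processing notes, reads were handled with FastQC 0.11.9, Trim Galore 0.6.5, STAR 2.7.3a and RSEM 1.3.3 on hg38 (GRCh38). The authors deposited RSEM expected counts per gene, not normalised, in a table of 269 value columns. The 60 of this series were used, and the other 209 were not used. Of the non-zero values 24.4% were not whole, and counts were rounded. Symbols and positions came from GENCODE 29, whose use by the authors is not given in the sources used here.

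Each fit held 2 extracts that share a set number in the labels and the 3 Vehicle libraries (filterByExpr with a minimum count of 10, TMM, robust quasi-likelihood F-test in edgeR 4.0.16, R 4.3.3). Benjamini-Hochberg adjustment ran over every gene of a comparison, for 26 comparisons, with calls under 0.05. CPM use 1 TMM scaling of all 60 libraries. Errors are SE for log2 changes and SD for levels. The test was tested on simulated data. Coptis and Zizyphus had no test.

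The members and lists were chosen with earlier results of these data known. Named genes were the 8 members, up to 3 genes with the lowest p of each list, and the 5 genes most like TSC22D3. One gene that this rule names is not reported here. Whether replicates were separate cultures is not stated, and the spread that p-values rest on may be technical. Vehicle libraries carry another set number than the extracts, so a difference in handling cannot be told apart from treatment in comparisons with Vehicle. Same-numbered libraries were taken to deviate together where all of at least 3 pairs had a correlation above 0.1. That held only for fresh ginger high against low (0.12 to 0.33) and dried against fresh ginger at the high dose (0.16 to 0.36). Dried ginger high against low came near it (0.05 to 0.36). Alternatives were DESeq2 1.42.0, RLE factors, no filter, 1 fit of all libraries, the replicate block and leaving out each library.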

Additional observations from a re-analysis of the deposited data

Results flagged for a closer look

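The high-minus-low change of TSC22D3, the log2 difference between the doses of an extract, was 0.86 ± 0.10 larger in dried than in fresh ginger (adjusted p = 6.97e-07), and that of SGK1 was -0.46 ± 0.07 (adjusted p = 1.04e-05), meaning a deeper fall in dried ginger. NR3C1 differed by -0.18 ± 0.06 (adjusted p = 0.0479). All 3 passed a test of the difference itself, which 11.2% of all genes passed. NR3C1 passed only narrowly, and no alternative was run for this test. Its calls between dried ginger doses and between the gingers were each lost without single libraries, as given above. PER1 did not pass it (-0.35 ± 0.12, adjusted p = 0.0709), nor did FKBP5 (-0.11 ± 0.09, adjusted p = 0.558).

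Between dried ginger and Sayeok-tang, tested in 1 fit of all 60 libraries, the dose change of TSC22D3 differed by 0.97 ± 0.12 (adjusted p = 2e-09), that of SGK1 by -0.46 ± 0.06 (adjusted p = 6.7e-08) and that of ERRFI1 by 0.25 ± 0.04 (adjusted p = 3.07e-06), beside 13.5% of all genes. ERRFI1 rose in dried ginger and fell in Sayeok-tang. Between Sayeok-tang and Bojungikgi-tang the lowest adjusted p among the 8 genes was 0.478, for KLF9 (-0.44 ± 0.17). These pairs of extracts were chosen after seeing the data.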

How the results depend on the processing

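No value of the 8 genes with a call changed sign under any alternative run. The 12 counts of genes called at the high doses stayed within 1.5 times of the value given under DESeq2, RLE factors, no filter, 1 fit of all 60 libraries and the replicate block. With libraries left out in turn they ran from 5 to 7 for dried ginger against Vehicle and 5 to 6 against its low dose, 3 to 4 and 4 to 4 for Sayeok-tang, 2 to 3 and 3 to 3 for fresh ginger, 1 to 1 and 0 to 1 for Bojungikgi-tang, 0 to 0 in both for Pinellia, and 5 to 5 and 5 to 6 for Scutellaria. The Bojungikgi-tang 0 came without high replicate 2 or low replicate 2. The replicate block ended 1 call among the 8 genes, CRISPLD2 with dried ginger (0.47, adjusted p = 0.0555), and no other, Scutellaria left aside. DESeq2 also ended KLF9 between Sayeok-tang and Bojungikgi-tang (adjusted p = 0.099). ERRFI1 for dried ginger high against low was lost with RLE factors (0.0514) and no filter (0.133), and ERRFI1 between Sayeok-tang and Bojungikgi-tang with no filter (0.105). The causes were not tested. Over all genes, counts called moved by over 1.5 times in several settings. With no filter they were 197 against 119 for Bojungikgi-tang high against low, 544 against 321 for its medium dose against Vehicle, 976 against 599 for dried ginger low, 299 against 128 for fresh ginger medium and 56 against 11 for Pinellia high against low. In 1 fit of all libraries they were 367 against 622 for Bojungikgi-tang high, 107 against 321 for its medium dose, 759 against 1161 for its low dose, 1402 against 599 for dried ginger low, 1800 against 1021 for its medium dose, 1010 against 610 for fresh ginger high against low, 465 against 128 for its medium dose, 2053 against 1077 for its low dose and 21 against 11 for Pinellia high against low. DESeq2 gave 272 for fresh ginger medium and 22 for Pinellia high against low, and the block 232 for fresh ginger medium. Leaving out 1 library at a time moved 61 of 150 such counts by over 1.5 times, and with them the shares set beside the 8 genes. For Bojungikgi-tang they ran from 203 to 756 at the high dose (622 with all libraries), 15 to 475 at the medium dose, 205 to 1484 at the low dose and 24 to 75 for high against low. Against Vehicle they ran from 1319 to 1855 for fresh ginger high (2224), 52 to 600 for its medium dose, 368 to 964 for its low dose, 417 to 934 for dried ginger medium, 137 to 515 for its low dose, 836 to 2064 for Sayeok-tang medium (1802), 766 to 1742 for its low dose (1392), and 671 to 1650, 429 to 1434 and 262 to 1081 for Pinellia high, medium and low (1481, 1192 and 914). They ran from 382 to 496 for fresh ginger high against low, 2 to 12 for Pinellia high against low and 183 to 244 for Sayeok-tang against Bojungikgi-tang (343). No such count moved that far for the dried ginger and Sayeok-tang high doses against Vehicle or against their low doses, or between the gingers. CRISPLD2 and KLF9, the lowest of the 8 genes, are the genes that depth limits most.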
